A study of Homo sapiens with 6 samples.

Results

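The 9 genes FOXM1, MYBL2, MYBL1, LIN9, LIN37, LIN52, LIN54, RBBP4 and MKI67 were taken by name from the 63299 genes of the deposited count table, and all 9 passed the filter on low counts. They encode the activators of late cell cycle genes, the core of the MuvB complex and the proliferation marker Ki-67. RNA was sequenced from LNCaP cells, an androgen-dependent line from a human prostate cancer, in 3 libraries of cells with knockdown of MEP50 (labelled Dox+) and 3 libraries of cells without it (labelled Dox-), called knockdown and control here. The series title gives a short hairpin RNA as the means of knockdown, and the labels mark it as switched by doxycycline. MEP50 is the partner protein of the arginine methyltransferase PRMT5, and its gene is WDR77. Whether the cells were 1 clone is not given in the sources used here, and in these groups the drug and the knockdown cannot be told apart.

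The MuvB core is a set of proteins that sits on the promoters of cell cycle genes and changes partners through the cycle. In resting cells it joins E2F4, a DP protein and RBL1 or RBL2 in the repressor called DREAM. In dividing cells it joins B-Myb, the product of MYBL2, and then FOXM1, and these complexes switch on the genes of G2 and mitosis. LIN54 is the subunit that touches DNA, at a short element called the CHR, and E2F proteins bind a separate GC-rich element. Ki-67 coats mitotic chromosomes and is present in cycling cells, which is why pathologists stain for it in prostate and other tumours.

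The libraries held 18568002 to 36234784 counts on genes, and 1 read was worth 0.027 to 0.0535 CPM (read counts scaled to a common library total by TMM). WDR77 had 15.0, 14.0 and 12.7 CPM in knockdown replicates 1 to 3, against 49.3, 47.2 and 36.7 CPM in control replicates 1 to 3. ATP5F1 on the other strand covers 12.5% of the WDR77 exon bases, and RP11-552M11.4 on the same strand covers 24.0%. The LNCaP markers KLK3, FOLH1, HOXB13 and EPCAM were present, at 96.2 to 1150 CPM in knockdown libraries and 92.9 to 3030 CPM in control libraries. Of 5 markers of other cell types, PTPRC, PECAM1 and TP63 had at most 1 read in any library, and CHGA stayed at or below 0.599 CPM. The fibroblast collagen COL1A1 had 9.33 to 12.6 CPM in knockdown libraries and 5.32 to 14.3 CPM in control libraries. The 5 together summed to 9.92 to 13.2 CPM in knockdown and 5.51 to 14.9 CPM in control libraries, and their part in the results was not tested. In bulk RNA, fewer cycling cells and less RNA of a gene per cycling cell cannot be told apart.

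Genes of this system are also controlled by it: as background, MYBL2 is a known target of E2F proteins and MKI67 of MuvB complexes. Matches to their elements in the promoters are therefore shown. RefSeq promoter windows (GRCh38.p14, 250 bases before to 50 after a start site) were in the table used for 7 of the 9 genes, all except FOXM1 and MYBL1. The CHR was searched as TTTGAA and the E2F element as GGCGGGA, each on both strands, and these 2 words cannot overlap each other. Of the 7 genes, 4 held TTTGAA in a window, namely MKI67, LIN54, LIN9 and LIN37. MKI67 held it at 2 places, at positions -47 and -29 from its start site. In the sites that follow, read on the gene's strand, capitals mark TTTGAA.
MKI67 chr10:128126453-128126482 (minus strand): ttagcgccagaaTTTGAAtcttcgttttcg
MKI67 chr10:128126435-128126464 (minus strand): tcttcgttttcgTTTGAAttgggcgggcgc
LIN54 chr4:83010906-83010935 (minus strand): ggcccttgtgcgTTTGAAggttggcggggc
LIN9 chr1:226309150-226309179 (minus strand): cggcgggcagccTTTGAAaaagcggcgcgg
LIN37 chr19:35748620-35748649 (plus strand): acgaagctcatcTTTGAActgtccccgcct

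GGCGGGA, or its reverse complement TCCCGCC, was found in a window of all 7 genes. The sites of the partner with the largest fall, MYBL2, of the 2 core subunits that fell, LIN52 and LIN54, and of RBBP4, which was not called, are shown with the word in capitals.
MYBL2 chr20:43667064-43667093 (plus strand): ccgacgcgcttGGCGGGAgatagaaaagtg
LIN52 chr14:74084922-74084951 (plus strand): gaacctcgtttTCCCGCCgacggttggcca
LIN54 chr4:83010887-83010916 (minus strand): gttggcggggcGGCGGGAggcttccccgga
RBBP4 chr1:32651121-32651150 (plus strand): ttccccgcccaTCCCGCCattaggagcgct
Of all 35116 windows, 15.2% held TTTGAA and 15.4% held GGCGGGA. Of the 10985 tested genes with a window, 13.8% held TTTGAA in at least 1 of their windows and 29.2% held GGCGGGA. The MYB word TAACGG and the forkhead word TGTTTAC were in none of the 7 genes' windows, and in 3.07% and 3.42% of all windows (TAACGG can share its last bases with GGCGGGA). Of the tested genes with a window, 5.3% held TAACGG and 3.62% held TGTTTAC in at least 1 of their windows. RBBP4, which was not called, held the E2F word, as did the 4 genes that fell and had a window.

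Both activators of the late genes fell with MEP50 knockdown, and so did Ki-67 and 2 subunits of the core that is known to recruit them. MYBL2 had the largest fall of the 9 genes, followed by MKI67, FOXM1, LIN52 and LIN54. LIN9, MYBL1, LIN37 and RBBP4 were not called. Thus 5 of the 9 were lower and 0 higher (edgeR quasi-likelihood test, adjusted p under 0.05), against 4.88% lower and 2.72% higher of the 21101 genes tested. DESeq2 and limma-voom also called 0 of the 9 higher, and 0 had a positive log2 fold change with an unadjusted p under 0.05. With the replicate pairs as a block, 6 were lower and 0 higher, against 14.9% and 11.2% of all genes tested. Leaving out knockdown replicate 2 reduced the 5 calls to 0, and leaving out knockdown replicate 3 or control replicate 1 reduced them to 2.

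**Figure D1:**
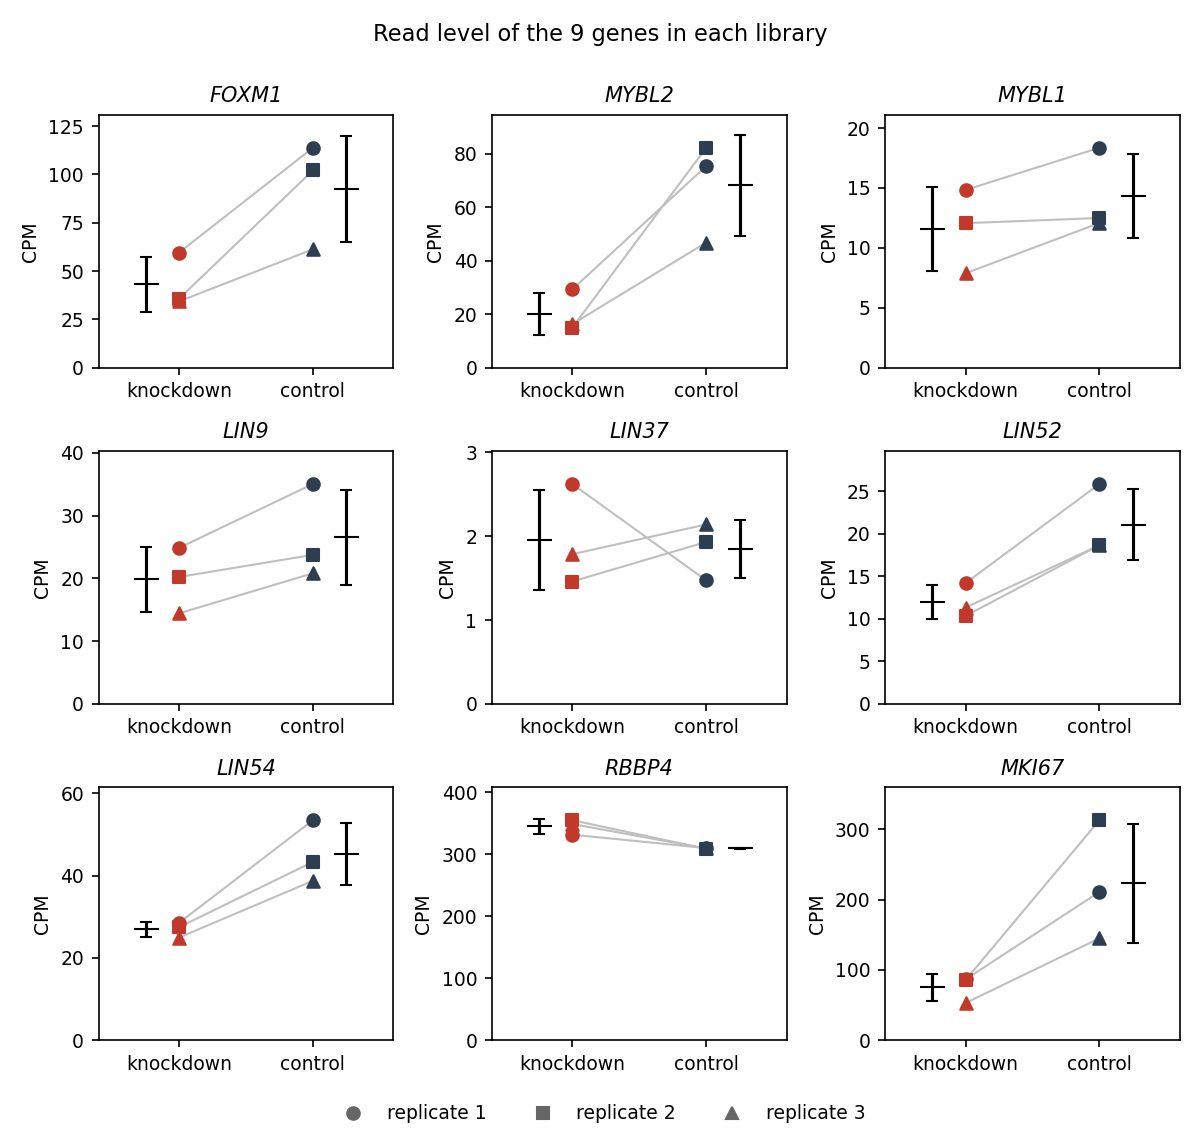
Level of each gene in CPM (y axis, from 0) in the 3 knockdown and 3 control libraries (x axis). Grey lines join libraries with the same replicate number, and black bars are the mean and SD. FOXM1, MYBL2, LIN52, LIN54 and MKI67 had all knockdown points under all control points, and RBBP4 had them above. Of all tested genes, 17% had them under and 13.4% above.

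FOXM1 (ENSG00000111206.12, chromosome 12, 2857681 to 2877155 in hg38, minus strand) encodes the forkhead factor that drives entry into mitosis. It had 59.5, 35.7 and 34.3 CPM in knockdown replicates 1 to 3, against 114, 102 and 61.3 CPM in control replicates 1 to 3. The groups did not overlap, with knockdown lower, as for 17% of all tested genes. Knockdown replicate 1 lay just below control replicate 3. FOXM1 was 2.14-fold lower (43.2 ± 14.2 against 92.4 ± 27.6 CPM, SD, n = 3 libraries each, log2 fold change -1.10, SE 0.27, adjusted p 0.0444, edgeR). The call was lost without knockdown replicate 2 (adjusted p 0.161), knockdown replicate 3 (0.126), control replicate 1 (0.114) or control replicate 2 (0.0784). Exons of ITFG2 on the other strand cover 15.9% of its exon bases, and the sources used here do not state whether reads were counted by strand.

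MYBL2 (ENSG00000101057.15, chromosome 20, 43667019 to 43716496, plus strand) encodes B-Myb, which binds the core in S phase and opens the way for FOXM1. It had 29.3, 14.9 and 16.3 CPM in knockdown libraries, against 75.4, 82.3 and 46.8 CPM in control libraries. Every knockdown library was below every control library, and the highest knockdown value, in replicate 1, was well short of the lowest control value, in replicate 3. MYBL2 was 3.39-fold lower (20.2 ± 7.93 against 68.2 ± 18.8 CPM, log2 fold change -1.76 with SE 0.30, edgeR adjusted p 0.0104). Without knockdown replicate 2 its adjusted p was 0.0526. In replicate pairs 1, 2 and 3 its log2 ratio of knockdown to control was -1.36, -2.46 and -1.53.

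MYBL1 (ENSG00000185697.16, chromosome 8) encodes A-Myb, the relative that is best known from meiosis in the testis and that can also join MuvB. It had 14.8, 12.1 and 7.88 CPM in knockdown libraries, against 18.4, 12.5 and 12.1 CPM in control libraries. The groups overlapped, and MYBL1 was not called (log2 fold change -0.30, 95% confidence interval -0.89 to 0.29, adjusted p 0.514, edgeR). Its value was lower in knockdown in all 3 pairs, with log2 ratios of -0.31, -0.05 and -0.62, and the block fit did not call it either (adjusted p 0.131).

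**Figure D2:**
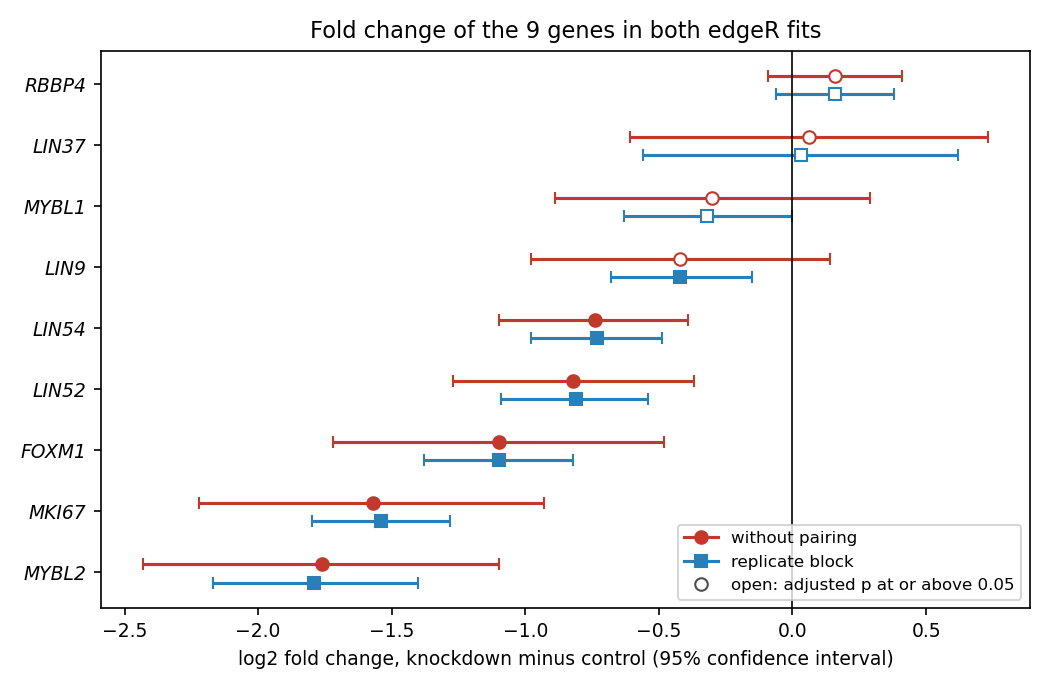
Log2 fold change of knockdown minus control (x axis) for each gene, with its 95% confidence interval, in edgeR without pairing (red circles) and with the replicate number added as a block (blue squares). Filled symbols have an adjusted p under 0.05. LIN9 is the gene that was called in the block fit alone.

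Within the core, 2 of 5 subunits were called lower by edgeR, against 4.88% of all tested genes. With the block 3 of the 5 were lower, against 14.9% of all tested genes. LIN52 (ENSG00000205659.10, chromosome 14, 74084796 to 74201235, plus strand) is the small subunit whose phosphorylation by DYRK1A holds RBL1 or RBL2 in DREAM. It had 14.2, 10.3 and 11.3 CPM in knockdown libraries, against 25.8, 18.7 and 18.6 CPM in control libraries. LIN52 was 1.76-fold lower (11.9 ± 2.01 against 21.0 ± 4.15 CPM, n = 3 libraries each). The groups did not overlap, and the log2 fold change was -0.82 with an SE of 0.20 (edgeR adjusted p 0.0399). Its adjusted p was 0.148 or 0.121 when knockdown replicate 2 or 3 was left out, and 0.132 or 0.0672 when control replicate 1 or 3 was.

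LIN54 (ENSG00000189308.10, chromosome 4, 82909973 to 83012926, minus strand), the DNA-binding subunit, had 28.5, 27.4 and 24.9 CPM in knockdown libraries, against 53.5, 43.3 and 38.7 CPM in control libraries. The knockdown values lay close together and all below the control values. LIN54 was 1.68-fold lower (26.9 ± 1.84 against 45.2 ± 7.54 CPM, log2 fold change -0.74 with SE 0.16, edgeR adjusted p 0.0241). The call was lost without knockdown replicate 2 (0.0915), knockdown replicate 3 (0.0905) or control replicate 1 (0.0823). Its log2 ratios in pairs 1 to 3 were -0.91, -0.66 and -0.64, and those of LIN52 were -0.86, -0.85 and -0.72.

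LIN9 (ENSG00000183814.15, chromosome 1, 226231149 to 226309869, minus strand), the subunit that with LIN52 forms the docking surface for B-Myb, had 24.8, 20.2 and 14.4 CPM in knockdown libraries, against 35.0, 23.7 and 20.8 CPM in control libraries. The groups overlapped, since knockdown replicate 1 was above control replicates 2 and 3, but each pair was lower in knockdown (log2 ratios -0.50, -0.23 and -0.53). LIN9 was not called without pairing (log2 fold change -0.42, 95% confidence interval -0.98 to 0.14, adjusted p 0.337, edgeR) and was lower with the replicate block (-0.42, adjusted p 0.0239). Without pairing, its log2 fold change was -0.13 when control replicate 1 was left out and -0.24 when knockdown replicate 3 was (adjusted p 0.813 and 0.651).

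LIN37 (ENSG00000267796.7, chromosome 19, 35748361 to 35754519, plus strand) is the subunit needed for repression by DREAM. It had few counted reads, with 49, 54 and 39 in knockdown libraries, against 38, 58 and 75 in control libraries. In CPM these were 2.62, 1.46 and 1.79 in knockdown and 1.47, 1.93 and 2.14 in control libraries, and the groups overlapped. LIN37 was not called (log2 fold change 0.06, 95% confidence interval -0.61 to 0.73, adjusted p 0.931, edgeR). An antisense gene, AC002398.11, covers 41.8% of its exon bases and held 831 reads over all libraries, against 313 for LIN37. A gene on the same strand, AC002398.9, covers 26.7% of them and held 0 reads. Reads in the shared bases may be missing from the LIN37 count, which was not tested.

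RBBP4 (ENSG00000162521.18, chromosome 1, 32651142 to 32686211, plus strand) is a histone-binding protein that MuvB shares with CAF-1, PRC2, NuRD and SIN3. It had 331, 355 and 349 CPM in knockdown libraries, against 310, 309 and 309 CPM in control libraries. All knockdown values were above all control values, as for 13.4% of tested genes, but the difference was small and not called (log2 fold change 0.16, 95% confidence interval -0.09 to 0.41, adjusted p 0.416, edgeR, and 0.276 with the block). The 6 RBBP4 pseudogenes of the table held reads equal to 1.23% to 1.58% of the RBBP4 reads in knockdown libraries and 0.794% to 1.20% in control libraries. SYNC on the other strand covers 18% of its exon bases.

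MKI67 (ENSG00000148773.13, chromosome 10, 128096659 to 128126385, minus strand), the gene of Ki-67, had 86.3, 85.4 and 52.7 CPM in knockdown libraries, against 211, 313 and 145 CPM in control libraries. The groups were well separated, and control replicate 2 was the highest. MKI67 was 2.98-fold lower (74.8 ± 19.2 against 223 ± 84.7 CPM, log2 fold change -1.57 with SE 0.29, edgeR adjusted p 0.0142). Without knockdown replicate 2 the adjusted p was 0.0533. The log2 ratios in the 3 pairs were -1.29, -1.87 and -1.46.

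Levels of different genes were compared per kilobase of exon (RPKM). In knockdown libraries RBBP4 led with 36.4 ± 1.28 RPKM, followed by FOXM1 with 8.81 ± 2.90, MYBL2 with 7.26 ± 2.86 and MKI67 with 5.84 ± 1.5 RPKM. LIN9 had 4.46 ± 1.18, LIN54 3.98 ± 0.272 and LIN52 3.23 ± 0.544 RPKM in knockdown, and MYBL1 with 1.6 ± 0.484 and LIN37 with 0.694 ± 0.213 RPKM were lowest. In control libraries RBBP4 had 32.7 ± 0.0691 RPKM, MYBL2 24.5 ± 6.77, FOXM1 18.9 ± 5.63 and MKI67 17.4 ± 6.61 RPKM. The core subunits LIN54, LIN9 and LIN52 had 6.68 ± 1.11, 5.97 ± 1.69 and 5.70 ± 1.13 RPKM in control, above MYBL1 with 1.98 ± 0.485 and LIN37 with 0.656 ± 0.121 RPKM. The exon length used for LIN37 includes the bases it shares with other genes, so its RPKM may be too low. Within MYBL2, FOXM1 and MKI67, and within LIN54, LIN9 and LIN52, the ranges of mean ± SD of neighbours in the order overlapped in both groups. In knockdown those of MKI67 and LIN9 overlapped as well, whereas in control MYBL2, FOXM1 and MKI67 lay above LIN54, LIN9 and LIN52 by more than the SDs.

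**Figure D3:**
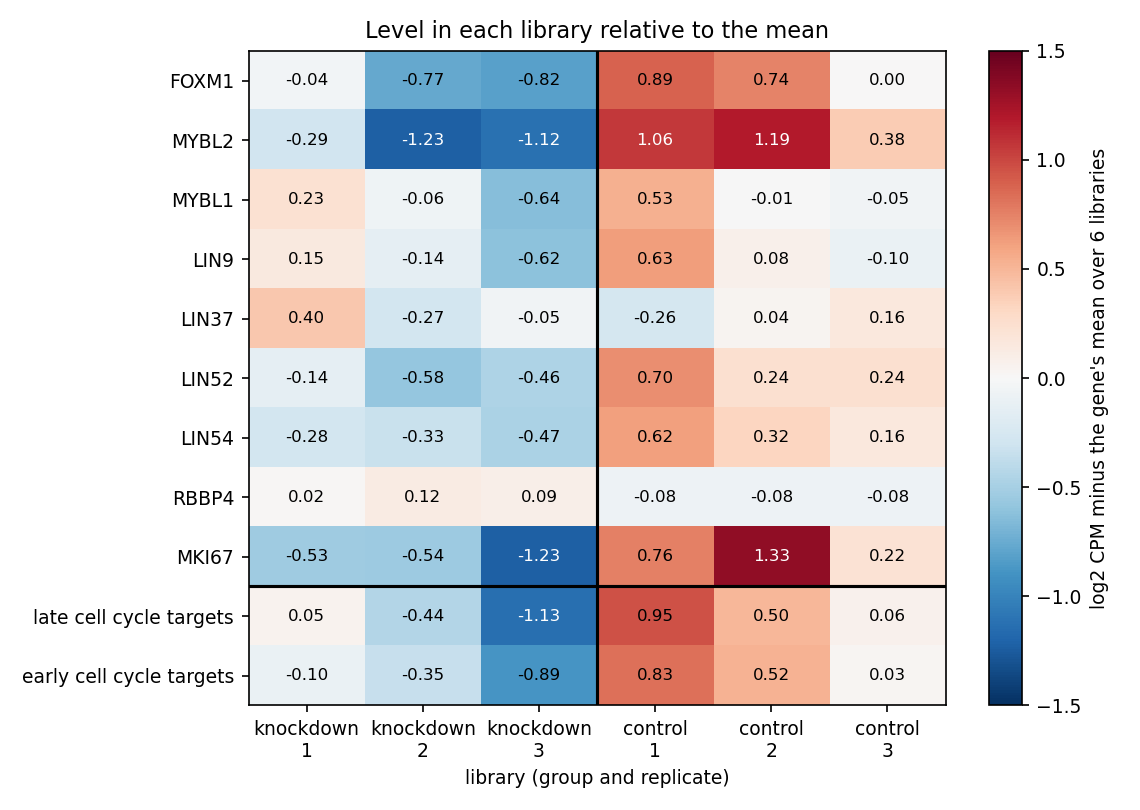
Log2 CPM (with 0.5 added) of each gene, and the median over the late and early cell cycle targets, minus its mean over the 6 libraries (color and printed value), for knockdown libraries on the left and control libraries on the right. Knockdown replicate 1 and control replicate 3 lay close together for FOXM1 (-0.04 and 0.00) and for the late targets (0.05 and 0.06), while MYBL2 (-0.29 and 0.38) and MKI67 (-0.53 and 0.22) kept them apart.

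The genes differed in whether libraries with the same number moved together, and in how far the groups stayed apart. Set against its own mean over the 6 libraries, FOXM1 was at -0.04, -0.77 and -0.82 on the log2 scale in knockdown replicates 1 to 3, and at 0.89, 0.74 and 0.00 in control replicates 1 to 3. On the same scale MYBL2 was lowest in knockdown replicate 2 (-1.23) and highest in control replicate 2 (1.19). MYBL1 and LIN9 followed nearly the same course as each other (Pearson r 0.979 over 6 libraries, a description), high in both replicates numbered 1 and lowest in knockdown replicate 3. FOXM1 and MYBL2 also ran together (r 0.974 over the same libraries, which share the knockdown contrast).

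Ratios of reads within a library do not depend on how libraries are scaled, and 7 such ratios, chosen after the values were seen, were compared by a two-sided exact permutation test. With 3 libraries against 3 the smallest p this test can give is 0.10. The log2 ratio of MYBL2 to MYBL1 was 0.98, 0.31 and 1.05 in knockdown libraries, against 2.04, 2.72 and 1.95 in control libraries (difference -1.46, exact p 0.10, adjusted over the 7 ratios 0.233). Every knockdown ratio was below every control ratio. The log2 ratio of RBBP4 to LIN54 was 3.54, 3.69 and 3.81 in knockdown libraries and 2.54, 2.83 and 3.00 in control libraries (difference 0.89, exact p 0.10, adjusted 0.233). That of LIN52 to LIN54 was -1.01, -1.41 and -1.14 in knockdown libraries and -1.05, -1.22 and -1.06 in control libraries (difference -0.08, exact p 0.70). MYBL2 to LIN54 differed by -1.05 (exact p 0.10), and FOXM1, LIN37 and LIN9 to LIN54 by -0.36, 0.79 and 0.32, each with overlapping groups (exact p 0.20). By replicate pair, 1 to 3, these differences were -0.03, -0.86 and -0.20 for FOXM1, 1.74, 0.26 and 0.38 for LIN37, and 0.41, 0.43 and 0.11 for LIN9, of 1 sign within each gene. The exact test did not use the pairing. None could pass 0.05 in this design, so the ratios are a description. LIN54 was itself called lower, so a ratio to it rises when the other gene stays level.

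Genes whose log2 CPM followed the 3 proliferation genes most closely were picked from 10505 genes with a mean of at least 10 CPM, by Pearson r over the 6 libraries. For MKI67 these were UBE2S, a ubiquitin-conjugating enzyme of the anaphase-promoting complex (r 0.996), MDC1 (0.996), the CDK1 inhibitory kinase PKMYT1 (0.995), FKBP5 (0.993) and SORBS2 (0.992). All 5 were lower, with log2 fold changes of -1.31, -1.42, -1.47, -1.05 and -0.77 (adjusted p 0.0124, 0.0169, 0.0282, 0.0231 and 0.0260, edgeR). For MYBL2 they were NCBP3 (r 0.996), INCENP of the chromosomal passenger complex (0.995), UBA1 (0.992), PFDN2 (0.991) and TADA3 (0.990). Of these INCENP fell by 1.38 on the log2 scale (adjusted p 0.0103), UBA1 by 0.67 (0.0172) and TADA3 by 0.74 (0.0160), while NCBP3 at -0.24 and PFDN2 at -0.28 were not called. For FOXM1 they were HMGXB3 (r 0.995), RINT1 (0.995), RNASEH2C (0.995), CCND3 (0.994) and TUBB4B (0.992). TUBB4B fell by 0.76 (adjusted p 0.0487), and the other 4 had log2 fold changes of -0.25 to -0.61 without a call. With knockdown replicate 2 left out, UBE2S was the only 1 of these 9 called genes still called, and the adjusted p of the others was 0.0561 (INCENP) to 0.177 (TUBB4B). Leaving out knockdown replicate 3 also ended the calls other than those of UBE2S and INCENP. Leaving out control replicate 1 ended those of TUBB4B, UBA1, PKMYT1, FKBP5 and SORBS2, leaving out control replicate 2 those of TUBB4B, PKMYT1 and SORBS2, and leaving out knockdown replicate 1 that of SORBS2. The points share the knockdown contrast and the library effects, and over so few libraries a high r is easily reached among this many genes. Genes picked for likeness to genes that fell are lower by that pick, so their fold changes and adjusted p are a description.

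The late cell cycle genes known as targets of the MYBL2 and FOXM1 complexes were lower in value throughout. This list, like the others here, was chosen with earlier results of these data known, so its values are a description. All 47 of the list had a negative log2 fold change, with a median of -1.02 against 0.00 over all tested genes, and with medians of -0.95, -1.0 and -1.2 in pairs 1 to 3. Every knockdown library was below every control library for 27 of the 47, against 17% of all tested genes. Of the 47, 7 were called lower by edgeR and 45 with the replicate block, against 4.88% and 14.9% of all tested genes. In either fit, in DESeq2, in limma-voom and at an unadjusted p under 0.05, 0 were higher. ANLN, an anillin of the cleavage furrow, had 57.8, 45.6 and 24.4 CPM in knockdown libraries, against 214, 157 and 100.4 CPM in control libraries. On the log2 scale it fell by 1.88 (SE 0.34, adjusted p 0.0139, edgeR), with 0.0629 when knockdown replicate 2 was left out. GTSE1, which acts on p53 and microtubules in G2, fell by 1.26 on the log2 scale (adjusted p 0.0320), and the securin gene PTTG1 fell by 1.21 (0.0384). GTSE1 and PTTG1 were not called when knockdown replicate 2 or 3, or control replicate 1 or 2, was left out (up to 0.0971 and 0.145). The 7 calls became 0 when knockdown replicate 2 was left out, 1 when knockdown replicate 3 or control replicate 1 was, and 2 when control replicate 2 was. They became 11 when control replicate 3 was left out and 32 when knockdown replicate 1 was, and DESeq2 made 37.

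**Figure D4:**
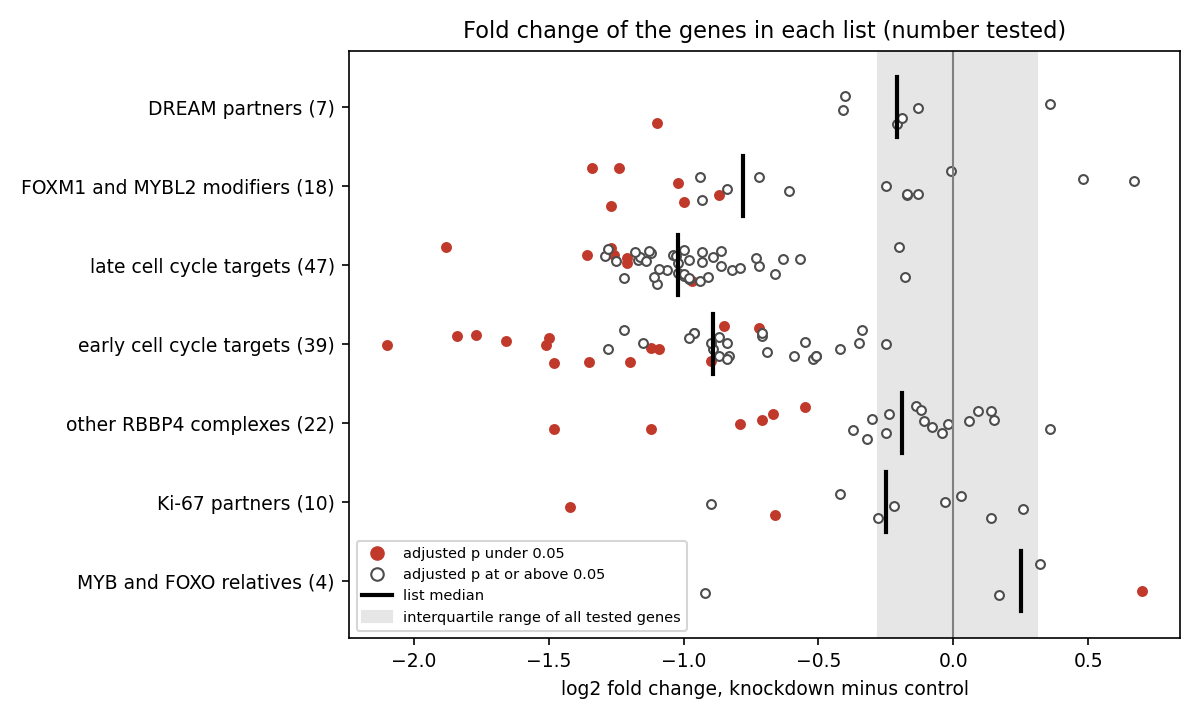
Log2 fold change of knockdown minus control (x axis) for each tested gene of the 7 lists (rows, number tested in brackets). Filled points have an adjusted p under 0.05 in edgeR, black bars are list medians, and the grey band is the interquartile range of all tested genes, -0.28 to 0.31. The late and early cell cycle targets lay almost wholly below the band, and the MYB and FOXO relatives had the one median above 0.

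The CHR word was held by most of the late targets. Of the 40 late targets with a promoter window, 27 held TTTGAA (67.5%), against 1 of 31 early targets (3.23%) and 13.8% of tested genes. It was also held by 4 of the 7 genes of the 9 with a window (57.1%), by 3 of 6 DREAM partners, and by 28.6% each of the modifiers of FOXM1 and MYBL2 and of the Ki-67 partners with a window. GGCGGGA was instead held by 10 of the 40 late targets (25%), by 22 of the 31 early targets (71.0%) and by 29.2% of tested genes. The median log2 fold change was -1.0 for the late targets with TTTGAA, and -0.97 for those without it. Over all tested genes with a window the median was -0.04 both with and without TTTGAA. These shares are a description of the sequence windows and were not tested.

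The early, G1/S targets of E2F and DREAM were also lower in value. All 39 had a negative log2 fold change, with a median of -0.89. Over all tested genes, 10499 of 21101 had a negative one. Of the 39, 14 were called lower by edgeR and 36 with the block, against 4.88% and 14.9% of all tested genes. In either fit, in DESeq2, in limma-voom and at an unadjusted p under 0.05, 0 were higher. RFC3, which encodes a subunit of the clamp loader, had 22.3, 20.9 and 17.2 CPM in knockdown libraries, against 67.9, 58.4 and 44.7 CPM in control libraries. That is a log2 fold change of -1.5 (SE 0.19, adjusted p 0.00324, edgeR), and each fit with 1 library left out called it. The ribonucleotide reductase gene RRM2 had 60.1, 47.7 and 22.8 CPM in knockdown libraries, against 246, 197 and 117 CPM in control libraries. Its log2 fold change was -2.1 (edgeR adjusted p 0.0118), and its adjusted p was 0.0545 when knockdown replicate 2 was left out. The 14 calls became 2 when knockdown replicate 2 was left out, 7 when control replicate 1 was, and 8 when knockdown replicate 3 or control replicate 2 was. DESeq2 made 27.

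Of 7 genes for the proteins that turn the core into DREAM, 1, RBL1, was called lower, against 4.88% of all tested genes. The list median was -0.21. Leaving out control replicate 1 moved that median to -0.07, and leaving out control replicate 2 or knockdown replicate 1 moved it to -0.32. RBL1, the gene of the pocket protein p107, had 25.3, 21.1 and 15.9 CPM in knockdown libraries, against 54.2, 45.9 and 33.7 CPM in control libraries (log2 fold change -1.10 with SE 0.22, edgeR adjusted p 0.0208). RBL2, the gene of p130, had 137 ± 1.35 CPM in knockdown and 183 ± 14.1 CPM in control libraries and was not called (-0.41, adjusted p 0.0608, and 0.00873 with the block). TFDP2, a partner of E2F proteins, was at 0.36 (0.0901, and 0.0153 with the block). With the block 3 of the 7 were lower and 1 higher, against 14.9% and 11.2% of all tested genes. RBL1 was not called once knockdown replicate 2 or 3, or control replicate 1, was left out (adjusted p up to 0.0841), and 2 genes were called without control replicate 2.

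Among 18 cyclins, CDKs, inhibitors and other modifiers of FOXM1, B-Myb and MuvB, 6 were lower by edgeR, against 4.88% of all tested genes. With the block 11 were lower and 1 higher, against 14.9% and 11.2% of all tested genes. Their median was -0.78 (-0.38 when control replicate 1 was left out). The list of modifiers shares 4 genes with the late targets, and CCNE1 and CCNE2 with the early targets. CDKN1B, the gene of the CDK inhibitor p27, had 40.8, 42.8 and 45.8 CPM in knockdown libraries, against 72.3, 74.8 and 88.8 CPM in control libraries (log2 fold change -0.87 with SE 0.13, edgeR adjusted p 0.00678). CCND1, the gene of cyclin D1, fell by 1.0 (adjusted p 0.0118). All 6 fits with a library left out called both genes. The gene of another CDK inhibitor, CDKN1A (p21), went the other way, with 274 ± 32.9 CPM in knockdown and 196 ± 43.8 CPM in control libraries. It was not called by edgeR (log2 fold change 0.48, adjusted p 0.13) and was higher with the block (0.0092). PLK1, the mitotic kinase that phosphorylates FOXM1 and is itself one of its targets, fell by 1.27 (0.0289). Its adjusted p reached 0.118 among the fits that left out knockdown replicate 2 or 3, or control replicate 1 or 2, none of which called it. The 6 calls were 2 without any 1 of those 4 libraries.

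RBBP4 itself was not called, but some subunits of its other complexes fell. Of 22 such genes 6 were lower by edgeR and 8 with the block, against 4.88% and 14.9% of all tested genes. Their median was -0.19. The CAF-1 subunit genes CHAF1A and CHAF1B fell by 1.12 and 1.48 on the log2 scale (adjusted p 0.0121 and 0.0130), and both are also in the early list. EZH2, the methyltransferase of PRC2, had 37.5, 34.4 and 34.8 CPM in knockdown libraries, against 70.8, 56.8 and 56.6 CPM in control libraries (-0.79, SE 0.14, adjusted p 0.0123). The fit that left out knockdown replicate 2 called none of these 3 (0.0526, 0.0612 and 0.0666), and EZH2 was also lost when knockdown replicate 3 was left out. The 6 calls became 0 when knockdown replicate 2 was left out, 2 when knockdown replicate 3 was, and 3 when control replicate 1 or 3 was. The RBBP4 paralog RBBP7 had 152 ± 24.2 CPM in knockdown and 161 ± 19.6 CPM in control libraries and was not called (-0.08, adjusted p 0.779).

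Of 10 partners of Ki-67, 2 were lower by edgeR and 4 with the block, against 4.88% and 14.9% of all tested genes. Their median was -0.25 (-0.14 when control replicate 1 was left out). CDCA2, the chromosome-bound phosphatase subunit Repo-Man, had 31.5, 22.2 and 12.5 CPM in knockdown libraries, against 76.7, 65.6 and 34.7 CPM in control libraries (log2 fold change -1.42 with SE 0.36, edgeR adjusted p 0.0469). The nucleolin gene NCL fell by 0.66 (adjusted p 0.0439). PPP1CC, a protein phosphatase catalytic subunit, was at -0.42 and was not called (0.133, and 0.0114 with the block). CDCA2 was still called when knockdown replicate 1 or control replicate 3 was left out, and NCL when control replicate 2 was, and neither was when any other library was (up to 0.148 and 0.153). NCL also lost it with RLE scaling and CDCA2 with thinned counts.

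FOXO3, a forkhead factor known to oppose FOXM1, rose. It had 149.6, 157 and 181 CPM in knockdown libraries, against 88.6, 96.3 and 115 CPM in control libraries, and the groups did not overlap (log2 fold change 0.70, SE 0.14, adjusted p 0.0205, edgeR). It was not called once knockdown replicate 2 or 3, or control replicate 1 or 2, was left out (up to 0.0775). Over all tested genes 2.72% were called higher by edgeR. Of 5 MYB and FOXO relatives 4 were tested, FOXO6 being too rare, and FOXO3 was the 1 called. Their median of 0.25 was 0.07 when knockdown replicate 3 was left out and 0.38 when control replicate 3 was. FOXO1 was at 0.32 (adjusted p 0.406), and MYB, the third gene of the Myb family, had 3.69, 3.11 and 1.24 CPM in knockdown libraries, against 6.13, 6.13 and 3.00 CPM in control libraries (-0.92, adjusted p 0.207, and lower with the block at 0.00280).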

How the data were processed

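Messenger RNA of 6 LNCaP libraries was sequenced. The deposited table holds raw counts of reads, as whole numbers, for each gene. Per the submitters' processing notes, bcl2fastq, STAR 2.5, featureCounts of Subread 1.6.5, edgeR 3.20.8 and the hg38 build were used. The strand setting and annotation release are not given in the sources used here. The members and lists were chosen with earlier results of these data known.

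From the deposited counts, edgeR 4.0.16 in R 4.3.3 was run here with TMM scaling, filterByExpr by group and a two-sided quasi-likelihood F test. P-values were Benjamini-Hochberg adjusted over 21101 genes, with 0.05 as the threshold for a call. Fold changes are knockdown over control on the log2 scale. Their SE is the absolute log2 fold change divided by the square root of the F statistic, and the confidence intervals use this SE. CPM and RPKM use TMM-scaled totals, RPKM with the table's exon length. Alternatives were RLE scaling, no filter, DESeq2 1.42.0, limma-voom (limma 3.58.1), thinned counts, each library left out, and the replicate number as a block. Over all tested genes, same-numbered libraries of both groups deviated together from their group means (correlations 0.637, 0.426 and 0.437, other pairs -0.429 to 0.0639). Deviations from a group mean cancel out within the group, so these correlations are not independent of each other. The block treats same-numbered libraries as pairs. This pairing was read from the numbers and these values, and was not tested. The series design calls the replicates biological. Both fits were run once on simulated counts with known changes. They recovered most of the large changes and few of the small ones. The share of false calls was above the threshold, clearly so without pairing and slightly so with the block. Far fewer genes were changed in the simulations than were called in the data. The simulation without pairing also held no pair effect, so these shares may not carry over to the data.

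Named genes were the 9 members, WDR77, the 3 genes of each list with the smallest adjusted p that no earlier list had named, and the 5 genes most like FOXM1, MYBL2 and MKI67. Other genes are named in a few places, chosen after their values were seen (CCND3 falls under the likeness rule, RBBP7 and CDKN1A do not). Some genes that these rules or the marker list name are not reported here.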

Additional observations from a re-analysis of the deposited data

How the results depend on the processing

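Over the 12 alternatives the 9 genes gave 108 fold changes, of which 94 kept their side of the threshold, 13 calls were lost and 1 (LIN9 with the replicate block) was gained. All 13 losses came from leaving out a library, and RLE scaling, no filter, DESeq2, limma-voom and thinned counts changed no call of the 9. The replicate block ended no call of the 46 named genes and added 8. With the block, genes called over the transcriptome were 2358 higher and 3148 lower. Lower calls with it were 3 of the DREAM partners (1 higher), 11 of the modifiers (1 higher), 45 of the late targets, 36 of the early targets, 4 of the Ki-67 partners and 1 of the MYB and FOXO relatives. Without the filter on low counts, 1336 genes were higher and 1812 lower, with 11 modifiers lower and 1 higher, 45 late targets, 34 early targets and 1 MYB or FOXO relative lower. DESeq2 called 898 genes higher, and 37 late and 27 early targets lower. Limma-voom called 11 late targets lower, and RLE scaling and thinning each left 1 Ki-67 partner lower. Leaving out 1 library gave 168 to 500 genes higher and 329 to 923 lower, the lowest counts without knockdown replicate 2. Over the same fits 0 to 5 of the 9 genes were lower, as were 0 to 2 DREAM partners, 2 to 6 modifiers, 0 to 32 late targets, 2 to 17 early targets, 0 to 6 genes of the other RBBP4 complexes and 0 to 1 Ki-67 partners, and 0 to 1 MYB or FOXO relatives were higher. The causes were not tested. Of the 9 genes LIN37 had the fewest reads, 38 to 75 a library.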
